A study of Mus musculus with 2 samples.

Results

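The miR-302/miR-367 cluster was examined in the hindbrain of B6NCrl mice, taken at embryonic day 16.5. It consists of 5 microRNA genes, Mir302b, Mir302c, Mir302a, Mir302d and Mir367, among the 1973 microRNA genes counted in the series. They were taken by symbol, through their Ensembl identifiers, with no filter on their counts, though earlier results of these data were known. The series holds 1 group of 2 libraries of short RNA, made from healthy embryonic tissue with males and females mixed, with no treatment, mutant or other stage beside it. Each library came from its own pool of embryos, of 37 embryos for replicate 2 per the labels, and the labels number them as biological replicates under 1 donor label. Replicate 1 held 5097205 reads on the sense strand of microRNA genes and replicate 2 held 4460836. Levels are in CPM, counts per 1000000 of these sense reads, and a gene counts as detected with at least 10 reads in both libraries.

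The miR-302 and miR-367 hairpins are cut from a single primary transcript that is abundant in pluripotent cells and in the early embryo. Its promoter is bound by the pluripotency factors Oct4, Sox2 and Nanog, and its products repress inhibitors of the cell cycle and brakes on self-renewal. The cluster declines as cells differentiate, while the let-7 family rises. In the mouse embryo miR-302 is known for its part in neural tube closure and in the timing of neural differentiation. The label given to these genes speaks of residual expression. With 1 stage in the series no earlier level was measured, so a decline could not be shown here, and in bulk tissue fewer cells with the transcript and less of it per cell cannot be told apart.

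The 5 hairpins lie within 580 bases on the plus strand of chromosome 3, from 127545228 to 127545807 (mm10, GENCODE M21). They sit in intron 8 of the 13-exon transcript ENSMUST00000029588.9 of Larp7, a gene on the opposite strand whose protein is part of the 7SK ribonucleoprotein. Mir302b comes first, followed by Mir302c after 61 bases, Mir302a after 65, Mir302d after 59 and Mir367 after 43, and Mir367 ends 18 bases from the next Larp7 exon. The hairpins are 66 to 75 bases long.

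The mature sequences show how the members fall into groups by their seed, the bases that pair with targets. RefSeq's table (GRCm38.p6) matched 5 of 5 members and 9 of their 10 mature arms, all but miR-302a-3p. The 3p arms, which are the arms usually loaded in pluripotent cells, are shown for 4 members and the 5p arm for Mir302a, 5′ to 3′, with bases 2 to 8 (the seed) in capitals.
miR-302b-3p: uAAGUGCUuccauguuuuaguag
miR-302c-3p: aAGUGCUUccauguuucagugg
miR-302d-3p: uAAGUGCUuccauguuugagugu
miR-367-3p: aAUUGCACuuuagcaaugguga
miR-302a-5p: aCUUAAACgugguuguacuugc

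The arms miR-302b-3p and miR-302d-3p share the seed AAGUGCU and a run of 17 bases, and they differ only toward the 3′ end. The annotated start of miR-302c-3p lies 1 base further in, which gives it the seed AGUGCUU, and it shares 16 bases with each of the other 2. A read that covered only this run would match more than 1 of these arms, and the tables hold reads with several matches as a separate total, apart from the genes (34.5% and 35.1% of all reads in replicates 1 and 2). How many of those reads came from the cluster was not tested. The counts are per hairpin, so the 5p and 3p arms, and the true start of miR-302c-3p, were not resolved. The miR-367-3p arm has the unrelated seed AUUGCAC. None of the 9 matched arms occurs in another hairpin of the table, and the longest run that miR-367-3p shares with any other mature microRNA there is 9 bases.

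Relatives outside the cluster carry the same or a shifted seed, and the arms below are shown because the levels further on are read against them. The miR-290 cluster is the other large microRNA cluster of mouse pluripotent cells, the miR-17 relatives come from clusters active in proliferating cells, and miR-25 and miR-92b carry the miR-367 seed.
miR-294-3p: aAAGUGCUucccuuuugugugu
miR-295-3p: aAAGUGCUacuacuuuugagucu
miR-17-5p: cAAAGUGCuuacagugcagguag
miR-25-3p: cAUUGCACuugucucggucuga
miR-92b-3p: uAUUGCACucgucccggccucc
The seed AAGUGCU of miR-302b-3p is also that of miR-294-3p and miR-295-3p. The seed of miR-17-5p, AAAGUGC, holds the same core moved by 1 base.

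Of the 5 members, 4 were detected, against 19.5% of all counted genes. The cluster held 4293 reads in replicate 1 and 3007 in replicate 2, which is 0.0842% (exact binomial 95% interval 0.0817% to 0.0868%) and 0.0674% (0.0650% to 0.0699%) of the sense reads, or 0.0758% ± 0.0119 (SD, n = 2). The intervals did not overlap, which is a gap beyond counting error. No read lay on the opposite strand of any member in either library.

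Mir302a (ENSMUSG00000065552.1, 127545496 to 127545564), the third hairpin, was the most abundant member. It had 1642 reads in replicate 1 and 1210 in replicate 2, which is 322 and 271 CPM (297 ± 36.0, SD, n = 2), and it ranked 151 of the 1973 genes by mean CPM. Mir302d (ENSMUSG00000065447.1, 127545624 to 127545689), the hairpin after it, had 1459 and 1047 reads, or 286 and 235 CPM (260.5 ± 36.4, SD, n = 2). Across libraries the levels of these 2 neighbours in the ranking overlapped, since Mir302d in replicate 1 stood above Mir302a in replicate 2.

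Mir302b (ENSMUSG00000076252.1, 127545228 to 127545301), which opens the cluster, had 1028 and 657 reads, or 202 and 147 CPM (174 ± 38.5, SD, n = 2). Mir302c (ENSMUSG00000065482.1, 127545363 to 127545430), the second hairpin, was far lower, with 164 and 93 reads, or 32.2 and 20.8 CPM (26.5 ± 8.01, SD, n = 2). It lies between 2 hairpins that were several times more abundant. Mir302c ranked 277, against 178 for Mir302b and 157 for Mir302d.

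Mir367 (ENSMUSG00000065413.2, 127545733 to 127545807), the last hairpin, had 0 reads in both libraries and on both strands. A count of 0 allows up to 3 reads, or 0.589 CPM at the depth of replicate 1 and 0.673 CPM at that of replicate 2. Set against 3 reads for Mir367, Mir302a was at least 547-fold higher in replicate 1 and at least 403-fold higher in replicate 2, and Mir302c at least 54.7-fold and 31.0-fold higher, with the counts of Mir302a and Mir302c taken as measured, without their own error. Whether the counting could have missed reads of Mir367 cannot be checked in the count tables, and the 0, these folds and any range that includes Mir367 hold only for reads assigned to the gene there. All intervals and limits given here cover only counting error, since the reads carry no molecular identifiers and repeated reads of 1 molecule cannot be told apart. The identifier of Mir367, like those of all 5 members, has the same version in the count tables and in GENCODE M21.

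**Figure D1:**
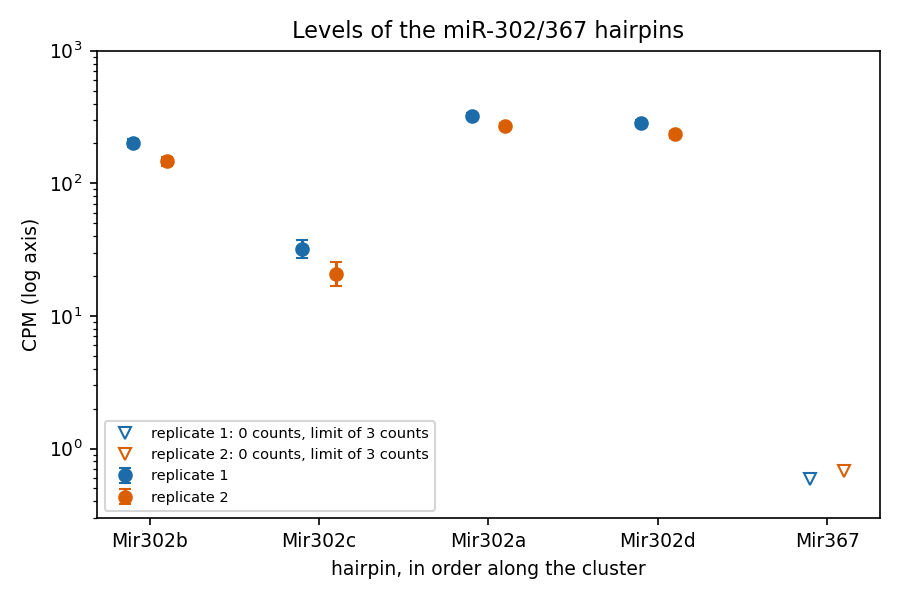
CPM (log axis) of the 5 hairpins in order along the cluster, with 1 point per library and exact binomial 95% intervals; open triangles mark 0 reads, drawn at the limit of 3 reads. Mir302a and Mir302d are highest, Mir302c lies near 20.8 to 32.2 CPM and Mir367 has 0 reads in both libraries.

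The order within the cluster was the same in both libraries. Mir302a supplied 39.2% ± 1.41 of the cluster's reads, Mir302d 34.4% ± 0.589, Mir302b 22.9% ± 1.48 and Mir302c 3.46% ± 0.514 (SD, n = 2). Ratios within a library do not depend on the total, and a pair was called different when replicates 1 and 2 had log2 ratios of equal sign whose mean was over 2 SD. By this rule 6 of the 6 pairs among the 4 detected members differed. No share over pairs of other genes stands beside this count, so it cannot be read as particular to the cluster. With 2 libraries the lowest p of an exact sign-flip test is 0.5, so the rule stands in for a test and covers only the spread between the libraries.

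The smallest difference was that of Mir302a over Mir302d, with log2 ratios of 0.17 (exact binomial 95% interval 0.07 to 0.27) and 0.21 (0.09 to 0.33) in replicates 1 and 2, a mean fold of 1.14. Mir302d exceeded Mir302b by 0.59 ± 0.12 on the log2 scale (SD, n = 2). Mir302a exceeded Mir302c by 3.51 ± 0.26, or 11.4-fold, and Mir302b exceeded Mir302c by 2.73 ± 0.12, or 6.63-fold (SD, n = 2). Capture of a microRNA in a small RNA library depends on its sequence, so ratios of reads between members need not equal ratios of molecules. The mature arms are 21 to 23 bases long, and no scaling by length was applied.

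Clusters of microRNAs made from 1 transcript often differ in the reads of their hairpins, and the range within the miR-302/miR-367 cluster was set beside others. Groups of at least 3 counted microRNA genes on 1 strand, with gaps of at most 10 kb and at least 1 detected gene, numbered 18. The range from the lowest to the highest hairpin of the miR-302/miR-367 cluster was 8.34 and 8.09 in replicates 1 and 2 on the log2(CPM + 1) scale, which placed it 8 of 18, above the median of 7.02. This range depended on Mir367, and with Mir367 at 0 it equals the level of Mir302a on that scale. Of the 18 groups, 7 held a member at 0 in both libraries. The groups held 3 to 107 hairpins and were not matched for number, so their order is a description only. The 4 detected members alone spanned 3.28 and 3.64, and among the 17 groups of at least 3 detected genes they were 14 in order of range, below the median of 6.18.

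**Figure D2:**
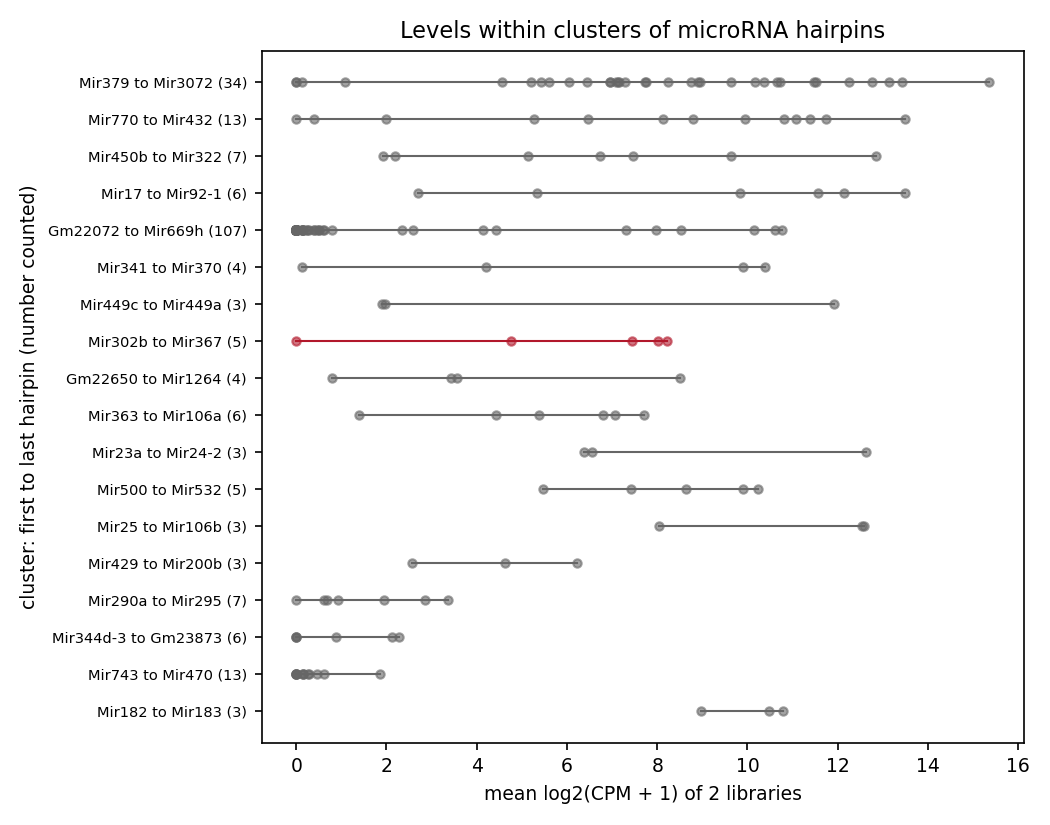
Mean log2(CPM + 1) over the 2 libraries of each counted hairpin in 18 genomic clusters, 1 row per cluster and 1 point per hairpin, ordered by range; the miR-302/miR-367 cluster is in red. Its range of 8.21 runs from Mir367 at 0 to Mir302a, and it is 8 of 18 in order.

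Hairpins with 0 reads beside an abundant one were also found elsewhere, in a comparison chosen after the count of Mir367 was seen. Of 91 counted genes with a neighbour on the same strand within 1 kb that had at least 1000 reads in both libraries, 15 (16.5%) had 0 reads in both. Over all counted genes, only 737 of 1973 had any read, so 0 reads was less frequent among the 91. Mir367 had the shortest gap of these 15, at 43 bases from Mir302d. The others, also named after their values were seen, included Mir654 near Mir376c, Mir432 near Mir434 and Mir453 near Mir485, all of the imprinted microRNA region on chromosome 12, and provisionally named genes near Mir467 genes. Most of the 15 lie in the group from Gm22072 to Mir669h, also named after its values were seen. In that group 80 of 107 hairpins had 0 reads in both libraries. Reads with several matches are held apart from the gene counts, and their part in these counts of 0 was not tested. The 16.5% is therefore not a rate for hairpins like Mir367.

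The other cluster of pluripotent cells was much lower than the miR-302/miR-367 cluster. The miR-290 list, with 7 counted of 9 listed genes, summed to 105 reads in replicate 1 and 91 in replicate 2, or 20.6 and 20.4 CPM (20.5 ± 0.141, SD, n = 2). The miR-302/miR-367 cluster exceeded it by 5.20 ± 0.22 on the log2 scale (SD, n = 2), or 36.8-fold, past the limit of 2 SD. Mir293 led it with 44 reads in each library (8.63 and 9.86 CPM), Mir294 had 32 and 28 reads and Mir292 17 and 11, and these 3 were detected. Mir291a (4 and 2 reads), Mir291b (6 and 3) and Mir295 (2 and 3) were not, and Mir290a had 0 reads in both. Even the lowest detected member of the miR-302/miR-367 cluster, Mir302c, stood above Mir293 in both libraries.

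The relatives by seed were more abundant than the cluster, with a split between their loci. The 6 miR-17 relatives summed to 32194 and 24976 CPM in replicates 1 and 2, which was 37.6-fold above the miR-302/miR-367 cluster (log2 ratio of the cluster over the relatives -5.23 ± 0.03, SD, n = 2). Mir17 (13407 and 9874 CPM), Mir93 (6927 and 5434 CPM), Mir106b (6474 and 5434 CPM) and Mir20a (5095 and 4032 CPM) were each far above any miR-302 hairpin. Mir20b (130 and 93.9 CPM) and Mir106a (161 and 108 CPM), of the X-linked cluster, were below Mir302b in both libraries.

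The seed of miR-367 was carried in these libraries by other hairpins. The 6 relatives with the seed AUUGCAC summed to 4677 ± 354 CPM (SD, n = 2) and all 6 were detected, while Mir367 had no read. Mir92b (3228 and 2956 CPM) and Mir92-1 (985 and 844 CPM) led, followed by Mir25 (283 and 245 CPM), Mir363 (219 and 198 CPM), Mir32 (168 and 146 CPM) and Mir92-2 (44.3 and 36.8 CPM). Mir92-1 and Mir92-2 make the same mature miR-92a-3p, so their single levels are uncertain. The miR-302/miR-367 cluster lay below this list by a log2 ratio of -2.63 ± 0.12 (SD, n = 2), a fold of 6.20.

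Against the let-7 family, known to rise with differentiation, the contrast was widest among the 4 lists compared. Its 10 counted genes of 12 listed summed to 139304 and 145063 CPM, which was 189-fold above the miR-302/miR-367 cluster (log2 ratio -7.56 ± 0.27, SD, n = 2). Of the 10, 4 share a mature sequence with another hairpin as far as RefSeq lists them, and without these 4 the log2 ratio was -7.52. Mirlet7g had 68387 and 73985 CPM and Mirlet7i 45310 and 44262 CPM. Of the neural list, which checks the labelled tissue, Mir137, a microRNA of the brain, had 9157 and 7199 CPM and Mir128-1 2489 and 2843 CPM. The Mir9 and Mir124a hairpins of that list, also markers of neural tissue, were at mean levels of only 0.322 to 476 CPM. The miR-9 and miR-124 loci are known to make the same mature sequences, so the levels of these single hairpins, named after their values were seen, are uncertain. Mir128-1 also shares a mature sequence with another hairpin, so its own level is uncertain too.

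**Figure D3:**
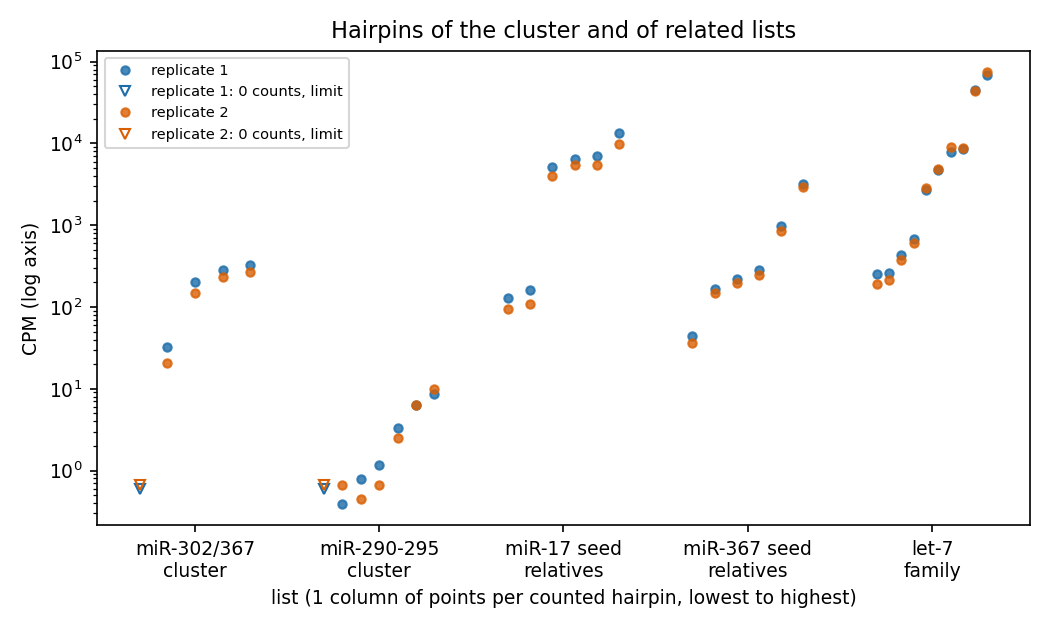
CPM (log axis) of each counted hairpin in both libraries, for the miR-302/miR-367 cluster, the miR-290 cluster, the relatives by seed and the let-7 family; open triangles mark 0 reads, drawn at the limit of 3 reads. The 4 detected miR-302 hairpins lie above all miR-290 hairpins and below Mir17, Mir20a, Mir93 and Mir106b.

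Genes outside the cluster at a similar level were picked by their distance from a member in log2 CPM over the 2 libraries. Nearest to Mir302a were Mir210, a microRNA induced by low oxygen, at 315 and 286 CPM (distance 0.09), Mir7-1 at 341 and 282 CPM (0.10) and Mir671 at 346 and 284 CPM (0.12). Nearest to Mir302c were Mir1198 at 31.4 and 23.1 CPM (0.15), Mir200b of the epithelial miR-200 family at 27.7 and 20.2 CPM (0.22) and Mir218-1 at 31.2 and 27.6 CPM (0.41). This likeness is of level in 1 tissue at 1 stage.

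The 4 detected members were all higher in replicate 1. Each gene was compared between the libraries by a two-sided exact binomial test on totals scaled by the TMM method, over 401 genes with at least 20 reads in sum, with Benjamini-Hochberg adjustment at 0.05. The test allows for counting noise only and compares 2 libraries, not conditions. All 4 tested members passed in this direction, where 24.4% of tested genes did. Mir302b had a log2 ratio of replicate 2 over replicate 1 of -0.39 (interval -0.53 to -0.25, exact binomial test, adjusted p = 2.76e-07) and Mir302c of -0.56 (-0.94 to -0.19, adjusted p = 0.00660, exact). Mir302d had -0.22 (-0.34 to -0.11, adjusted p = 0.000464, exact) and Mir302a -0.18 (-0.29 to -0.08, adjusted p = 0.00226, exact). The median of the 4 was -0.31, beside -0.003 over all 401 genes, and the largest difference, that of Mir302c, was 1.48-fold.

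With an allowance for variation between pools no member was called. edgeR's exact test, run with the biological coefficient of variation (BCV) set by assumption to 0.1, called 0 of the 4 members, with adjusted p from 0.583 to 0.965, where it called 1.75% of tested genes, and 1 of the 4 members had an unadjusted p under 0.05. The 4 hairpins come from 1 transcript and are not independent, so their shared direction is not 4 separate results.

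Other lists also differed between the libraries, and their values stand beside those of the cluster. By the binomial test 6 of 6 miR-17 relatives were higher in replicate 1, with a median log2 ratio of -0.33, as were 3 of 6 miR-367 relatives, while 0 of the 3 tested miR-290 genes passed in either direction. All 10 let-7 genes passed, 4 higher in replicate 1 and 6 higher in replicate 2. These counts stand beside 24.4% of all tested genes called higher in replicate 1, and 186 of 401 called in either direction. edgeR's exact test at a BCV of 0.1 called 0 genes of each of these 4 lists, and 1 miR-17 relative and 0 genes of the other lists had an unadjusted p under 0.05. Summed over all 5 counted genes, muscle markers had 375 CPM in replicate 1 and 24.9 CPM in replicate 2, with Mir1a-1, Mir133a-1 and Mir133a-2 at 0. Nearly all of this sum was Mir206, a microRNA of skeletal muscle, at 369.6 and 24.2 CPM (log2 ratio of replicate 2 over replicate 1 -3.87). Mir133b had 26 and 3 reads (-2.86), and all of these muscle genes were named after their values were seen. The 5 epithelial markers summed to 186 and 111 CPM, with log2 ratios from -0.23 to -0.81. The sums of the vascular (34724 and 36467 CPM), erythroid (216 and 206 CPM), leukocyte (401 and 366 CPM) and liver (41.0 and 41.9 CPM) markers were closer between the libraries. Members of the erythroid list went opposite ways (log2 ratios of -0.39 for Mir144 and 0.27 for Mir451a). So did those of the leukocyte list (-0.25 for Mir223 and 0.22 for Mir150), all named after their values were seen. The part of muscle, epithelial or proliferating tissue in the difference of the miR-302 hairpins was not tested.

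**Figure D4:**
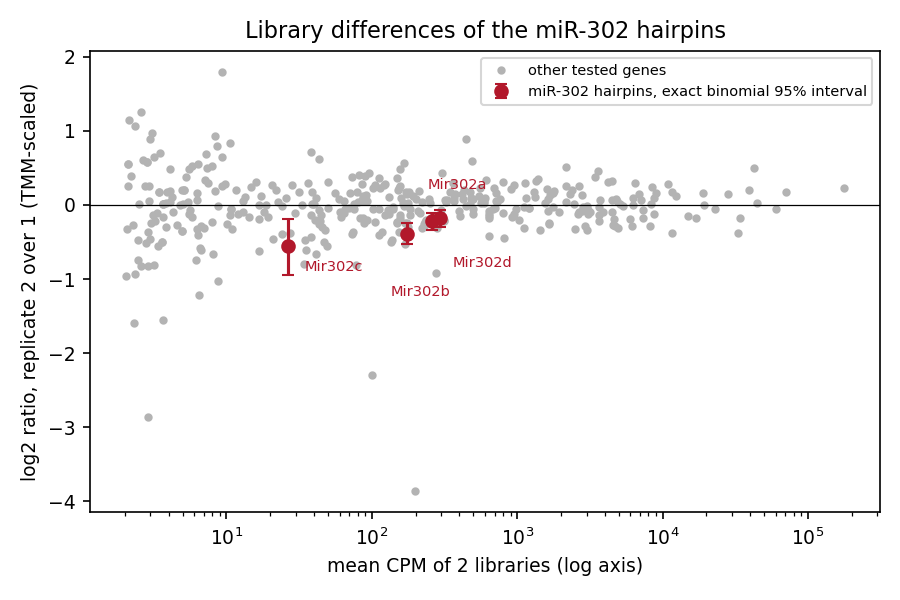
Log2 ratio of replicate 2 over replicate 1 (TMM-scaled) against mean CPM (log axis) for 401 tested genes, with the 4 detected miR-302 hairpins in red and their exact binomial 95% intervals. All 4 lie below 0, from -0.18 for Mir302a to -0.56 for Mir302c, within the cloud of other genes.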

How the data were processed

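Short RNA (under 30 nt per the labels) from 2 pools of hindbrain was sequenced. The authors deposited raw counts of reads per microRNA gene, made on mm10 with GENCODE M4 per the text file that came with each sample. The sources used here do not name the aligner or the counter. Summary lines stayed out of totals, and the column of sense reads was used (97.6% of the counts on both strands). Identifiers were matched without version to GENCODE M21 (GRCm38, mm10). The members and lists were chosen with earlier results of these data known. Named genes were all members, all counted genes of the miR-290, miR-17 and miR-367 lists, the 2 most abundant of the let-7 and neural lists, and the 3 genes nearest in level to the highest and lowest detected member; others are said in the text to be named after their values were seen. Mir292a was matched to Mir292 by RefSeq synonym. Ratios used a pseudocount of 0.5 reads. With 1 library a side, edgeR's quasi-likelihood test has no residual degrees of freedom, so the exact binomial test was used, with edgeR's exact test beside it. The binomial test was tested on counts simulated with counting noise only, which cannot show how it behaves with variation between pools. Alternatives were both strands, other totals, minimums, pseudocounts, distances, scalings and tests, and each replicate alone. The tools were edgeR 4.0.16 and DESeq2 1.42.0 in R 4.3.3, and scipy 1.17.1, pandas 2.3.3, numpy 2.4.6 and matplotlib 3.10.9 in Python 3.11.15.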

Additional observations from a re-analysis of the deposited data

How the results depend on the processing

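Of 89 values recomputed under the alternatives, 75 kept their direction and their side of the threshold or moved by less than the spread between replicates, and 0 reversed. With 2 replicates, either one alone must lie within that spread of the mean. Some other alternatives could not move a value, such as count minimums for a log2 ratio. The 75 of 89 is therefore not a measure of robustness. The share of the miR-302/miR-367 cluster, 0.0758%, was 0.0920% with the most abundant gene left out of the total and 0.0432% with multimapping reads added to it, as the construction of each total implies; each replicate alone gave 0.0674% to 0.0842%. The number of members called between the libraries, 4, was 0 with edgeR's exact test at a BCV of 0.1 and 0 at a BCV of 0.2, and 4 with plain totals, DESeq2 size factors and other count minimums; unadjusted p was under 0.05 for 1 and 0 members. Over all genes 186 were called, against 7 at a BCV of 0.1 and 2 at 0.2. With plain totals 131 were higher in replicate 1 and 62 in replicate 2, against 98 and 88. The range within the cluster, 8.21 on the log2(CPM + 1) scale, was 9.21 with a pseudocount of 0.5 CPM and 3.46 over detected hairpins alone, which leaves out Mir367. Hairpins that share a mature sequence were known only as far as RefSeq's table lists them. No paired analysis was possible because the series has 1 group. Depth limits Mir367 and Mir290a, whose counts of 0 set only upper limits, and the miR-290 genes with 2 to 6 reads, whose intervals are wide.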
